A study of Mus musculus with 12 samples.

Results

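The tumor necrosis factor (TNF) superfamily and its receptors were followed through 12 MC38 tumors. The genes were taken by name: every row whose symbol begins with Tnfsf or Tnfrsf, together with Tnf, Lta, Ltb, Ltbr, Fas, Fasl, Cd27, Cd70, Cd40 and Cd40lg. This gave 42 of the 18211 genes measured, namely 17 ligands, 24 receptors and 1 row, Tnfsfm13, for read-through transcripts that join Tnfsf12 to Tnfsf13. Of these, 37 had enough reads to be tested (15 ligands, 21 receptors and the read-through row). Tnfrsf8, with 90 reads summed over all tumors, was measured and not tested, and 4 genes with under 30 summed reads are only listed: Cd40lg (16), Cd70 (7), Tnfrsf17 (6) and Tnfrsf19 (24).

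MC38 is a mouse colorectal adenocarcinoma line, and the tumors grew under the skin of female C57BL/6 mice aged 5 weeks per the methods. The 4 groups were formed on day 7, and each gave 3 tumors. CK mice received vehicle. The PB-020 group received PB-020, a small-molecule IGF-1R inhibitor, by gavage at 50 mg/kg per day in DMSO and corn oil. The anti-PD-1 group received an antibody to the inhibitory T cell receptor PD-1, injected into the peritoneum at 200 μg per mouse on days 9, 12, 15 and 18 after cell injection, and the PB-020/anti-PD-1 group received both. Cancer cells and host cells are both of mouse origin, so their reads are not separable, and in such bulk tumors more cells of a type and more RNA per cell cannot be told apart. The paper reports less tumor growth with the combination than with either treatment alone. Tumor size thus differed with treatment, and its part in the results was not tested.

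Most TNF superfamily ligands are trimeric proteins of the cell membrane that can be shed, and their receptors cluster when they bind. Receptors with an intracellular death domain, such as Fas and TNFR1, can recruit caspases. Receptors without one bind TRAF adaptors and signal to NF-kB, and several of them (CD27, 4-1BB, OX40, GITR, HVEM) are costimulatory receptors of T cells. A further set binds ligands without passing on a full signal and is known as decoy receptors. The family is known in tumors for T cell costimulation, for killing of target cells through Fas ligand and TRAIL, and for inflammation driven by TNF itself.

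Libraries held between 16545394 and 17217035 reads assigned to genes, so depth differed little, and no library duplicated another. Of the marker lists for other cells, 9 T cell genes summed to between 17.4 and 24.7 TPM (a level scaled to transcript length and library) in CK tumors, 25.1 to 33.6 with PB-020, 40.1 to 110.6 with anti-PD-1 and 46.3 to 75.6 with the combination. Anti-PD-1 tumor 1 stood apart, with the highest sums of T cell genes, of macrophage genes (1967 against 978 to 1357 elsewhere) and of skeletal muscle genes (968 against 17.5 to 97.7). CK tumor 3 held 697 TPM of neutrophil genes, against 9.67 to 51.4 in the other tumors. It also held 31.9 TPM of adipocyte genes, against 0 to 3.17 in the others. Of the epithelial genes, Krt8, Krt18 and Epcam were below 1 TPM in every tumor, while Cdh1 lay between 2.85 and 6.93 TPM.

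**Figure D1:**
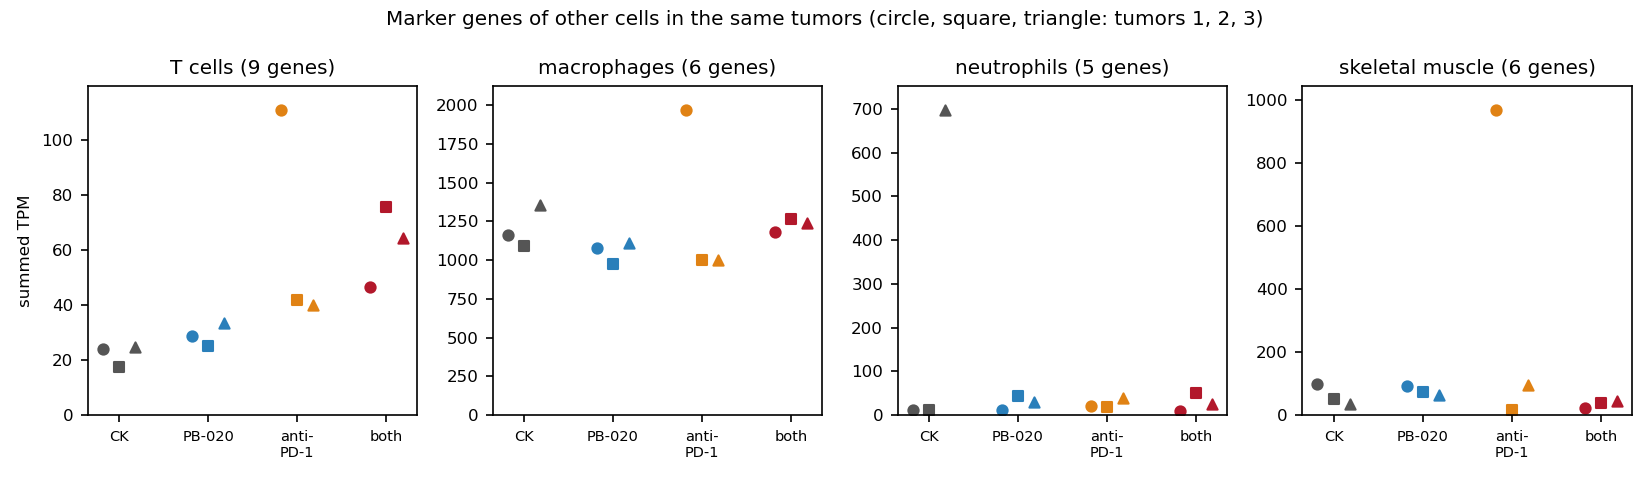
Summed TPM of marker genes for T cells, macrophages, neutrophils and skeletal muscle (vertical axes, linear, from 0) in each tumor of the 4 groups (horizontal axis), with circle, square and triangle for tumors 1, 2 and 3. T cell sums were 17.4 to 24.7 in CK and 46.3 to 75.6 in the combination ("both"), anti-PD-1 tumor 1 led 3 of the panels, and CK tumor 3 led the neutrophil panel.

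The genes with the highest levels were receptors. Tnfrsf12a, the receptor of TWEAK (Tnfsf12) known from injured and growing tissue, had the highest mean level of all 42 genes at 288 TPM and made up between 34.0% and 42.3% of the summed level of the family in each tumor. It was followed by Tnfrsf1a, the death domain receptor of TNF (81.3 TPM), Ltbr, the lymphotoxin beta receptor (61.2 TPM), Tnfrsf1b, the second TNF receptor (58.3 TPM), and the decoy receptors Tnfrsf23 (33.7 TPM) and Tnfrsf22 (32.0 TPM). The ligand with the highest mean level was Tnfsf12 at 28.5 TPM, then Tnfsf9 (4-1BB ligand) at 23.4 TPM. Tnf and Ltb followed far below at 5.60 and 5.49 TPM. The lowest tested genes were Tnfsf15 at 0.131 TPM and Tnfsf18 at 0.469 TPM, so their changes rest on few reads (1 to 17 and 1 to 21 per tumor).

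**Figure D2:**
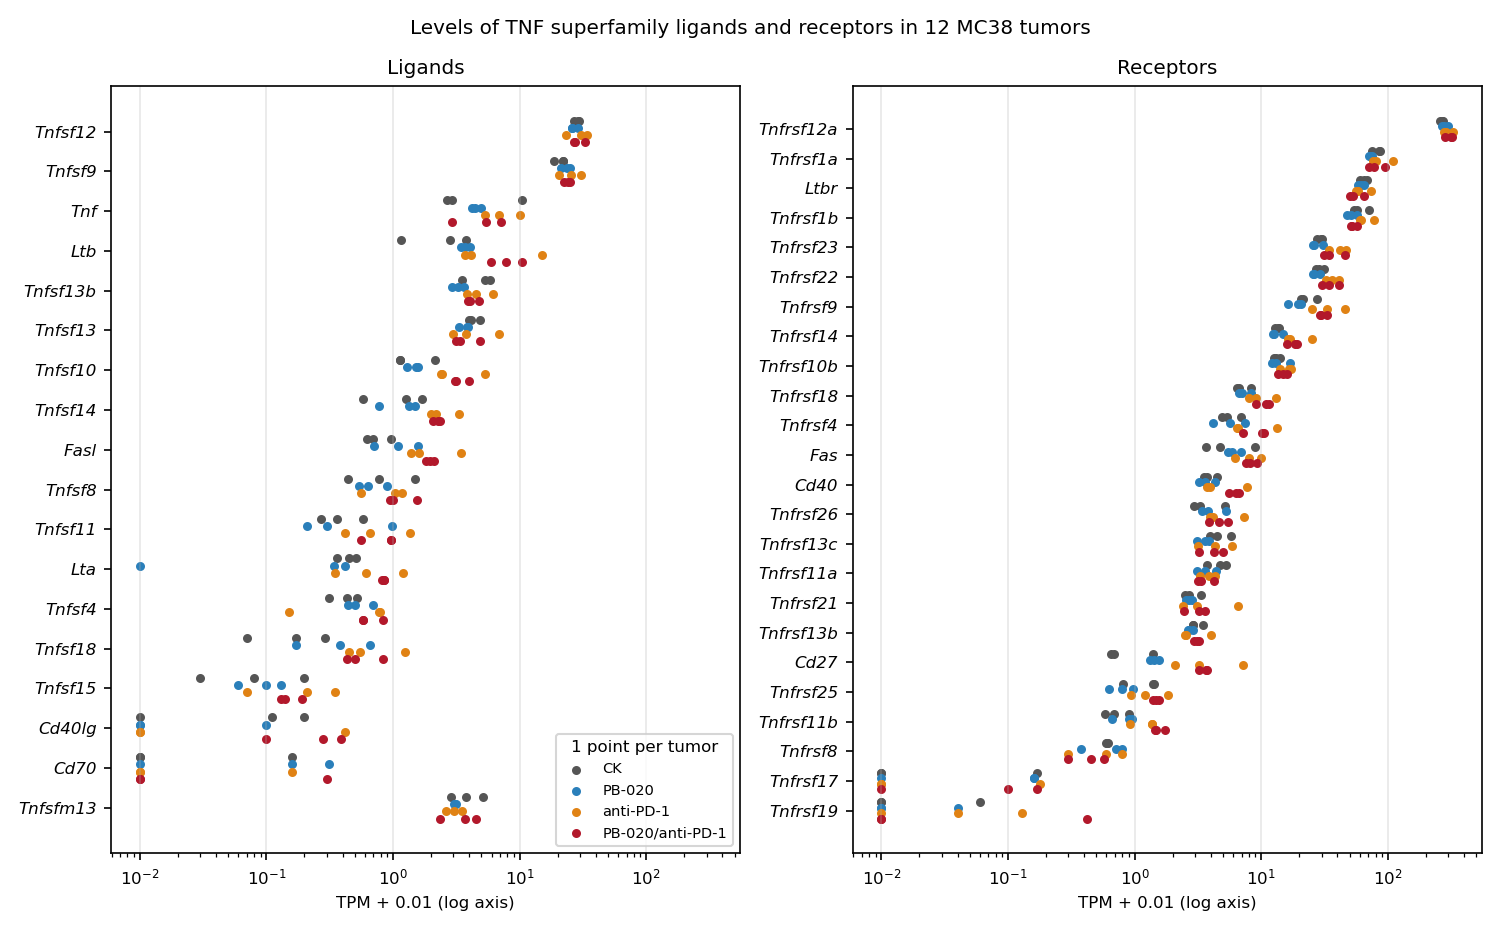
TPM plus 0.01 (horizontal axes, log scale) of 17 ligands and the read-through row (left) and 24 receptors (right), 1 point per tumor, colored by group and ordered by mean level. Tnfrsf12a lies to the right of every other gene at a mean of 288 TPM. The left edge, which marks 0 reads, is reached by the 4 genes that are only listed and by Lta in PB-020 tumor 2.

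The question for each gene was whether either treatment, or both together, changed its RNA level in the tumor. Values per tumor are normalized counts on the CPM scale, that is, reads set against the scaled size of the library, in the order of tumors 1, 2 and 3, and changes are log2 changes of that quantity with their standard error (SE), tested with the quasi-likelihood test of edgeR and adjusted over 13563 genes. A gene is said to have risen or fallen at an adjusted p under 0.05. All comparisons with CK share the same 3 CK tumors.

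PB-020 alone changed 0 of the 37 genes, as it changed 0% of all genes tested. With an unadjusted p under 0.05, edgeR returned 1 of the 37 genes and 741 of all genes, and DESeq2 called 0 of the family and 6 of all genes after adjustment. The one gene was Tnfrsf12a, with 126, 116 and 114 CPM in CK and 128, 129 and 142 CPM with PB-020. The groups did not overlap, by a narrow margin, and the log2 change was 0.16 (SE 0.06, adjusted p = 0.87). Intervals were wide for rare genes and narrow for abundant ones: the 95% interval of the log2 change ran from -0.17 to 2.73 for Tnfsf18 and from -0.19 to 0.22 for Ltbr. The median log2 change was 0.02 over the 37 genes and -0.004 over all genes.

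Anti-PD-1 alone raised 5 of the 37 genes (13.5%) and lowered 0, against 4.18% of all genes raised and 4.08% lowered. Those that rose were the ligands Tnfsf10 and Fasl, the costimulatory receptors Cd27 and Tnfrsf14, and the decoy receptor Tnfrsf23. Without adjustment, 14 genes (37.8%) were higher and 0 lower at a p under 0.05 in edgeR, against 13.6% and 13% of all genes. DESeq2 raised 8 of the family and lowered 0, among 884 genes raised and 756 lowered. The median log2 change was 0.45 over the 37 genes and 0.0005 over all genes. In CPM, all 3 anti-PD-1 tumors lay above all 3 CK tumors for 11 genes (29.7%), against 13.9% of all genes.

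These 5 calls rested in part on single tumors. Of the 37 genes, 22 (59.5%) had their highest CPM in anti-PD-1 tumor 1, as had 20.8% of all genes. Without that tumor Cd27 and Tnfrsf14 were still called, 2 in all, and the median log2 change was 0.23. The count was 0 without CK tumor 2, 3 without CK tumor 1, 2 without PB-020 tumor 1 (which enters only through the shared filter, scaling and estimate of spread), 2 without anti-PD-1 tumor 3 and 9 without anti-PD-1 tumor 2. Over all genes, the number raised moved in the same fits from 567 to 65, 345, 363, 128 and 937 in that order, and to 292 without anti-PD-1 tumor 1. A model of the 6 CK and anti-PD-1 tumors alone called 0 members and raised 1 of all genes.

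The combination raised 10 of the 37 genes (27%) and lowered 0, against 8.35% of all genes raised and 9.6% lowered. They were the ligands Tnfsf10, Fasl and Ltb, the costimulatory receptors Cd27, Tnfrsf14 and Cd40, the decoy or soluble receptors Tnfrsf11b, Tnfrsf22 and Tnfrsf23, and Tnfrsf12a. Without adjustment, 15 (40.5%) were higher and 0 lower at a p under 0.05 in edgeR, against 16.5% and 17.4% of all genes. DESeq2 raised 11 of the family and lowered 0, among 1384 genes raised and 1358 lowered. The median log2 change was 0.45, against -0.003 over all genes. All 3 combination tumors lay above all 3 CK tumors for 21 genes (56.8%), against 19.6% of all genes. Without CK tumor 2 only Cd27 was called, and the count was 6 without CK tumor 1, 4 and 5 without combination tumors 1 and 2, and 15 without anti-PD-1 tumor 1. Over all genes, 1132 rose, and 329, 811, 460, 533 and 1678 did so in those fits.

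**Figure D3:**
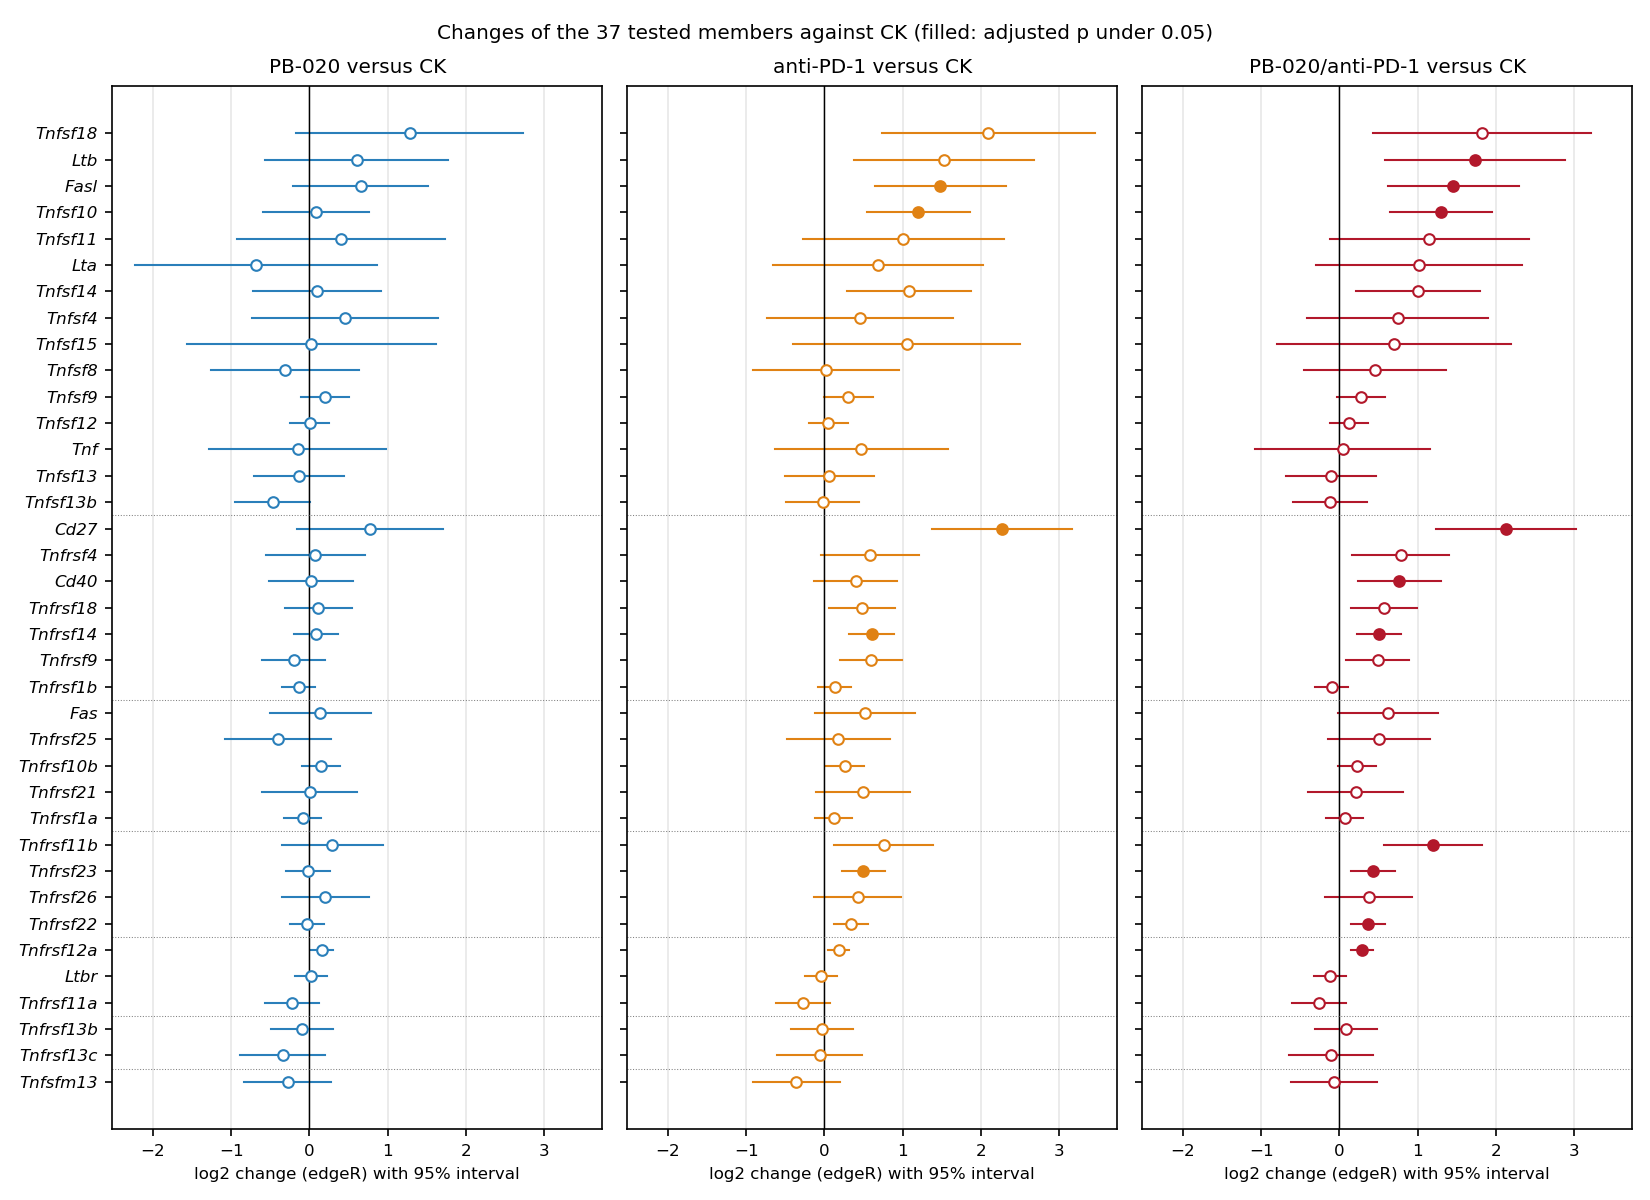
Log2 change against CK (horizontal axis) with its 95% interval for the 37 tested genes (vertical axis, dotted lines parting ligands, costimulatory, death domain, decoy or soluble, tissue and bone, and B cell ligand receptors and the read-through row), for PB-020, anti-PD-1 and the combination from left to right. Filled points passed an adjusted p of 0.05: 0, 5 and 10 genes, each of them to the right of 0.

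Against anti-PD-1 alone the combination changed 0 of the 37 genes and 0% of all genes in edgeR, and 0 of the 37 in DESeq2. The genes with an unadjusted p under 0.05 numbered 984, with 1 of the family among them, Tnfrsf1b, the TNF receptor of regulatory T cells and myeloid cells. It had 192, 163 and 168 CPM with anti-PD-1 and 141, 151 and 153 CPM with the combination. These tumors did not overlap, and the log2 change was -0.23 (SE 0.10, adjusted p = 0.665). In CK tumors Tnfrsf1b was at 146, 145 and 186 CPM, which overlapped both groups, and with PB-020 at 143, 157 and 134 CPM.

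Against PB-020 alone the combination raised 2 genes (5.41%), Tnfsf10 and Tnfrsf22, and lowered 0, against 1.25% and 2.11% of all genes. Both adjusted p values were 0.049. Both calls were lost with the tumor number as a replicate block (adjusted p = 0.0504 for each). Both were lost in 8 of the 12 fits that left out 1 tumor, namely CK tumor 1 or 2 and any tumor of the groups compared. The count was 1 without CK tumor 3, 1 without anti-PD-1 tumor 3, 7 without anti-PD-1 tumor 1 and 5 without anti-PD-1 tumor 2. Over all genes, 455 were called with all tumors and between 0 and 1269 in the 12 fits. DESeq2 called 5 of the family among 1090 genes. Without adjustment, edgeR had 14 (37.8%) higher and 0 lower at a p under 0.05, against 10.2% and 12.3% of all genes.

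The interaction, which asks whether the combination differed from the sum of the separate log2 changes, changed 0 of the 37 genes and 0% of all genes in edgeR, and 0 of the 37 in DESeq2. Without adjustment, 0 of the 37 and 310 of all genes had a p under 0.05. The 95% intervals of rare genes, such as -2.14 to 0.31 for Cd27 and -3.40 to 0.29 for Tnfsf18, were wide, while those of Tnfrsf12a (-0.25 to 0.14) and Tnfrsf22 (-0.25 to 0.37) were narrow. Averaged over anti-PD-1, PB-020 changed 0 of the 37 genes and 0% of all genes. Here 2 genes had an unadjusted p under 0.05, Tnfrsf12a with a log2 change of 0.13 (SE 0.05, adjusted p = 0.34) and Tnfrsf1b with -0.18 (SE 0.07, adjusted p = 0.37), among 1475 genes, and DESeq2 called 0 of the 37.

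Averaged over PB-020, the 6 tumors given anti-PD-1 were compared with the 6 that were not. This raised 15 of the 37 genes (40.5%) and lowered 0, against 11.8% of all genes raised and 12.3% lowered. Without adjustment, 19 (51.4%) were higher and 0 lower at a p under 0.05, against 18.9% and 19% of all genes, and DESeq2 called 14 of the family among 3388 genes. Of the 15 tested ligands, 15 had a positive change and 5 rose, with a median log2 change of 0.86, against 4.5e-05 over all genes. Some of these signs rest on few reads per tumor, such as 1 to 17 for Tnfsf15, 1 to 21 for Tnfsf18, 0 to 13 for Lta and 2 to 12 for Tnfsf4. Of the 7 costimulatory receptors 6 rose (median 0.57), of the 4 decoy or soluble receptors 3 (median 0.42), of the 3 tissue and bone receptors 1 (median -0.09), and of the 5 death domain receptors and the 2 receptors of B cell ligands 0 (medians 0.35 and 0.08). The costimulatory class held Cd40 and Tnfrsf1b beside Cd27, Tnfrsf4, Tnfrsf9, Tnfrsf14 and Tnfrsf18, so it is wider than the T cell receptors named above. All of them but Tnfrsf1b rose. The count lay between 10 and 16 when any 1 tumor was left out, and was 11 without anti-PD-1 tumor 1 and 11 without CK tumor 2. Counts over all genes are not given for these fits, so they do not show whether the family moved apart from all genes.

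**Figure D4:**
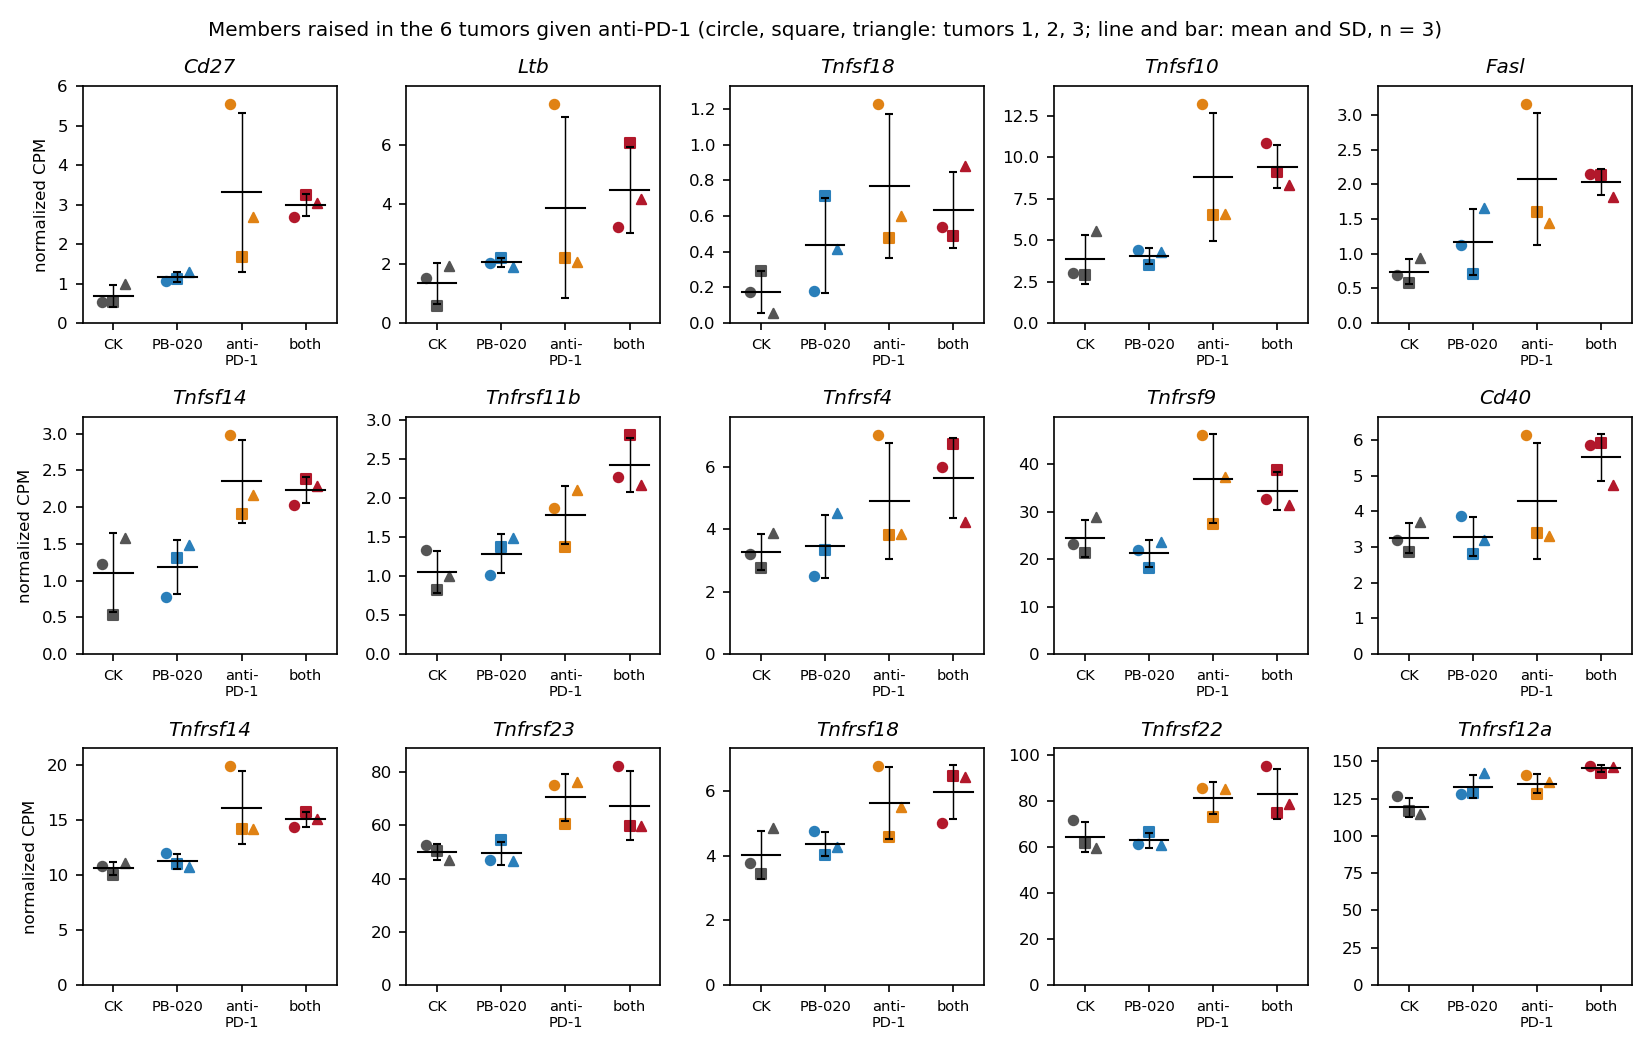
Normalized CPM (vertical axes, linear, from 0) of the 15 genes that rose in the 6 tumors given anti-PD-1, in each tumor of the 4 groups (horizontal axes; circle, square and triangle are tumors 1, 2 and 3; the line and bar are the mean and SD, n = 3). Anti-PD-1 tumor 1 is above the rest of its group in most panels. The combination tumors lie closer together in most, for Cd27 between 2.69 and 3.24 CPM, but not for Tnfrsf22 and Tnfrsf23.

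Among the ligands, Tnfsf10 (TRAIL, which binds death receptors on target cells) had 3.02, 2.92 and 5.56 CPM in CK, 4.40, 3.50 and 4.27 CPM with PB-020, 13.2, 6.53 and 6.60 CPM with anti-PD-1, and 10.9, 9.10 and 8.31 CPM with the combination. Every tumor given anti-PD-1 lay above every tumor that was not. The log2 change was 1.20 with anti-PD-1 (SE 0.30, adjusted p = 0.033), 1.30 with the combination (SE 0.30, adjusted p = 0.014) and 0.08 with PB-020 (SE 0.31, adjusted p = 0.99). Without anti-PD-1 tumor 1 the change with anti-PD-1 was 0.78, with an adjusted p of 0.075. The anti-PD-1 call held in 7 of the 12 fits that left out a tumor, and the combination call in 10.

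Fasl, the Fas ligand of cytotoxic lymphocytes, was at 0.697, 0.583 and 0.936 CPM in CK and 1.13, 0.713 and 1.66 CPM with PB-020. It was at 3.16, 1.60 and 1.44 CPM with anti-PD-1 and 2.15, 2.14 and 1.81 CPM with the combination. Both groups given the antibody lay above CK, and PB-020 tumor 3 reached into the range of the anti-PD-1 group. The log2 change was 1.48 with anti-PD-1 (SE 0.39, adjusted p = 0.035) and 1.45 with the combination (SE 0.39, adjusted p = 0.022). The first was called in only 5 of the 12 fits that left out a tumor, and not without anti-PD-1 tumor 1 (1.04, adjusted p = 0.11). The second was called in 8 of the 12.

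Ltb, the lymphotoxin beta chain made by lymphocytes, had 1.51, 0.583 and 1.93 CPM in CK and 2.02, 2.20 and 1.90 CPM with PB-020. With anti-PD-1 it had 7.38, 2.20 and 2.04 CPM, and with the combination 3.23, 6.05 and 4.16 CPM. The combination tumors lay above all CK and PB-020 tumors, whereas anti-PD-1 tumors 2 and 3 were close to the PB-020 tumors. The log2 change was 1.73 with the combination (SE 0.52, adjusted p = 0.041) and 1.53 with anti-PD-1 (SE 0.52, adjusted p = 0.091). The combination call held in only 3 of the 12 fits that left out a tumor, and it was lost with a replicate block (1.80, adjusted p = 0.058).

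Tnfsf14 (LIGHT, a ligand of HVEM and of the lymphotoxin beta receptor) had 1.22, 0.525 and 1.58 CPM in CK, 0.774, 1.31 and 1.48 CPM with PB-020, 2.99, 1.90 and 2.16 CPM with anti-PD-1 and 2.03, 2.38 and 2.28 CPM with the combination. All tumors given anti-PD-1 were above all that were not, with an average log2 change of 0.99 (SE 0.26, adjusted p = 0.015). Tnfsf18, the GITR ligand, had 0.174, 0.292 and 0.0585 CPM in CK, 0.179, 0.713 and 0.415 CPM with PB-020, 1.23, 0.475 and 0.600 CPM with anti-PD-1, and 0.538, 0.489 and 0.878 CPM with the combination. Its average change was 1.32 (SE 0.43, adjusted p = 0.039), was called in only 3 of the 12 fits that left out a tumor, and was not called without anti-PD-1 tumor 1 (1.06, adjusted p = 0.082), by DESeq2 or with a replicate block.

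The abundant ligands moved little. Tnfsf12 (TWEAK) had 25.2, 22.4 and 24.8 CPM in CK, 26.2, 23.0 and 23.4 CPM with PB-020, 27.4, 20.3 and 27.1 CPM with anti-PD-1 and 23.9, 26.02 and 28.8 CPM with the combination, where its log2 change was 0.12 (SE 0.12, adjusted p = 0.49). Its rows share reads with their neighbours: 42.8% of the 150-base windows of Tnfsf12 transcripts and 51.2% of those of Tnfsf13 (APRIL) also occur in Tnfsfm13, so the split among the 3 rows is uncertain. Summed to 1 row they changed by 0.07 with the combination (SE 0.11, adjusted p = 0.67). Tnfsf9 had 13.1, 9.50 and 12.3 CPM in CK, 13.4, 11.9 and 14.8 CPM with PB-020, 16.3, 11.9 and 14.8 CPM with anti-PD-1, and 13.4, 14.5 and 14.3 CPM with the combination, with log2 changes of 0.31 (adjusted p = 0.19) and 0.28 (adjusted p = 0.19) in the last groups.

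Tnf itself was at 2.50, 2.16 and 8.54 CPM in CK, 3.87, 3.62 and 4.39 CPM with PB-020, 7.79, 4.51 and 6.00 CPM with anti-PD-1 and 2.51, 6.54 and 4.57 CPM with the combination. CK tumor 3, the tumor with 697 TPM of neutrophil genes and 31.9 TPM of adipocyte genes, had the highest value of all 12. With it, the log2 change with anti-PD-1 was 0.47 (SE 0.50, adjusted p = 0.585), and without it 1.38 (SE 0.35, adjusted p = 0.046). With the combination the values were 0.04 (adjusted p = 0.96) and 0.96 (adjusted p = 0.090). The part of the neutrophil or adipocyte cells in this difference was not tested. The fit without CK tumor 3 was chosen after the values were seen, and leaving out the highest CK tumor by itself enlarges a rise.

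The other ligands were rare. Lta, the lymphotoxin alpha chain, averaged 0.291 ± 0.057 CPM in CK (SD, n = 3) and 0.598 ± 0.013 CPM with the combination, a log2 change of 1.02 (SE 0.61, adjusted p = 0.26). Tnfsf11 (RANKL) had 0.447 ± 0.18 CPM in CK and 1.0 ± 0.31 CPM with the combination, a change of 1.15 (SE 0.59, adjusted p = 0.19). Tnfsf4, the OX40 ligand, Tnfsf8, the CD30 ligand, Tnfsf15 (TL1A) and Tnfsf13b (BAFF) changed by 0.75, 0.45, 0.70 and -0.12, with adjusted p values from 0.351 to 0.725. Cd70, the ligand of CD27, had 0 to 2 reads per tumor, and Cd40lg, the CD40 ligand, 0 to 4, which sets no direction.

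Among costimulatory receptors Cd27, a receptor of naive and memory T cells, changed most. It had 0.523, 0.525 and 0.995 CPM in CK, 1.07, 1.13 and 1.30 CPM with PB-020, 5.56, 1.66 and 2.70 CPM with anti-PD-1 and 2.69, 3.24 and 3.04 CPM with the combination. The PB-020 tumors lay above CK, and every tumor given the antibody lay above both. The log2 change was 0.77 with PB-020 (SE 0.44, adjusted p = 0.87), 2.27 with anti-PD-1 (SE 0.42, adjusted p = 0.0097) and 2.12 with the combination (SE 0.42, adjusted p = 0.0060). The change with anti-PD-1 was 1.67 without anti-PD-1 tumor 1 (adjusted p = 0.017), and it was not called without CK tumor 2 (2.12, adjusted p = 0.056). T cell markers moved with it: of the 8 tested, 7 rose with anti-PD-1 and 7 with the combination, with median log2 changes of 1.70 and 1.80, and 0 rose with PB-020 (median 0.47). Other marker lists moved in the same groups. Of 4 tested erythroid genes, 4 fell with anti-PD-1 and 4 with the combination (medians -2.48 and -2.99). Of 5 fibroblast genes, 2 fell and 3 were higher without a call in each (medians 0.37 and 0.32). Of 4 keratinocyte genes 1 rose in each (medians -0.69 and 1.32), and of 5 NK cell genes 1 rose with the combination (median 0.81). Each of these 2 lists held 1 gene far above the rest. Krt14 was at 140 to 361 TPM and the other keratinocyte genes at 0 to 11.2 TPM. Klra4 was at 88.1 to 170 TPM and the other NK cell genes at 0.38 to 5.93 TPM. These lists may therefore not follow the number of those cells. Of 6 dendritic cell genes, 3 rose in the average effect of anti-PD-1 (median 0.67). The part of T cell number, or of these other cells, in the change of Cd27 or of the other genes here was not tested.

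Tnfrsf14 (HVEM, receptor of LIGHT and partner of BTLA) was at 10.9, 9.97 and 11.1 CPM in CK and 12.02, 11.05 and 10.7 CPM with PB-020. With anti-PD-1 it was at 19.97, 14.2 and 14.2 CPM, and with the combination at 14.4, 15.7 and 15.1 CPM. No tumor without the antibody reached the lowest tumor with it. The log2 changes were 0.60 with anti-PD-1 (SE 0.13, adjusted p = 0.0185) and 0.50 with the combination (SE 0.13, adjusted p = 0.020), and the first was 0.42 without anti-PD-1 tumor 1 (adjusted p = 0.046).

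Tnfrsf9 (4-1BB) had 23.2, 21.3 and 28.8 CPM in CK, 22.0, 18.1 and 23.7 CPM with PB-020, 46.3, 27.4 and 37.3 CPM with anti-PD-1 and 32.7, 38.9 and 31.3 CPM with the combination. Only CK tumor 3 and anti-PD-1 tumor 2 overlapped across the line between the 6 tumors with and the 6 without the antibody. The average log2 change was 0.64 (SE 0.13, adjusted p = 0.0057), and the separate changes were 0.60 with anti-PD-1 (adjusted p = 0.064) and 0.49 with the combination (adjusted p = 0.085).

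Tnfrsf4 (OX40) had 3.196, 2.74 and 3.86 CPM in CK, 2.50, 3.33 and 4.51 CPM with PB-020, 7.03, 3.80 and 3.84 CPM with anti-PD-1 and 5.98, 6.72 and 4.21 CPM with the combination. Tnfrsf18 (GITR) had 3.78, 3.44 and 4.86 CPM in CK, 4.76, 4.04 and 4.27 CPM with PB-020, 6.79, 4.57 and 5.52 CPM with anti-PD-1 and 5.02, 6.48 and 6.44 CPM with the combination. Both overlapped between CK and anti-PD-1 and were clear of CK in the combination. Their average changes were 0.65 (SE 0.20, adjusted p = 0.035) and 0.47 (SE 0.14, adjusted p = 0.027), and that of Tnfrsf4 was not called without anti-PD-1 tumor 1 (0.47, adjusted p = 0.068) or with a replicate block (0.64, adjusted p = 0.062). These average calls held in 5 of the 12 fits that left out a tumor for Tnfrsf4 and 7 for Tnfrsf18.

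Cd40, the receptor through which T cells license dendritic cells and B cells, had 3.196, 2.86 and 3.69 CPM in CK, 3.87, 2.79 and 3.202 CPM with PB-020, 6.15, 3.39 and 3.30 CPM with anti-PD-1 and 5.86, 5.93 and 4.74 CPM with the combination. The combination tumors lay above all CK and PB-020 tumors, and 2 of the anti-PD-1 tumors lay among the CK tumors. The log2 change was 0.76 with the combination (SE 0.25, adjusted p = 0.048) and 0.40 with anti-PD-1 (SE 0.25, adjusted p = 0.32). The combination call held in only 4 of the 12 fits that left out a tumor. The call of the average effect of anti-PD-1 held in 5 of them. The direct difference between the combination and anti-PD-1 was 0.36 (SE 0.24, adjusted p = 0.78).

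Tnfrsf22 and Tnfrsf23, neighbouring mouse decoy receptors of TRAIL on chromosome 7, rose in parallel. Tnfrsf23 had 52.8, 50.4 and 47.0 CPM in CK, 47.1, 54.5 and 46.8 CPM with PB-020, 75.0, 60.5 and 76.3 CPM with anti-PD-1 and 82.5, 59.9 and 59.9 CPM with the combination. Tnfrsf22 had 71.7, 61.8 and 59.6 CPM, then 61.2, 66.7 and 61.1 CPM, then 85.7, 73.2 and 85.1 CPM, then 95.4, 74.9 and 78.6 CPM in the same order. For both genes, all tumors given anti-PD-1 lay above all others. The log2 changes with the combination were 0.43 (SE 0.13, adjusted p = 0.036) for Tnfrsf23 and 0.37 (SE 0.10, adjusted p = 0.025) for Tnfrsf22, and without combination tumor 1, which was the highest, they were 0.26 and 0.25 and not called. With anti-PD-1 they were 0.50 (SE 0.13, adjusted p = 0.034) and 0.34 (SE 0.10, adjusted p = 0.054). That of Tnfrsf23 was called in only 6 of the 12 fits that left out a tumor, and not without anti-PD-1 tumor 1 (0.45, adjusted p = 0.095). The combination calls held in 7 of the 12 for Tnfrsf23 and 9 for Tnfrsf22.

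The pair share some sequence. Of 150-base windows, 10.6% of those of Tnfrsf23 occur in Tnfrsf22 and 3.72% the other way, so some reads could be assigned to either. Summed to 1 row, they changed by 0.41 with anti-PD-1 (SE 0.11, adjusted p = 0.038) and 0.39 with the combination (SE 0.11, adjusted p = 0.026). The sum was not called against PB-020 (0.42, adjusted p = 0.053). Tnfrsf26, the third gene of the cluster, changed by 0.37 with the combination (SE 0.26, adjusted p = 0.33).

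Tnfrsf11b (osteoprotegerin, a soluble decoy for RANKL and TRAIL) had 1.34, 0.816 and 0.995 CPM in CK, 1.01, 1.37 and 1.48 CPM with PB-020, 1.87, 1.37 and 2.10 CPM with anti-PD-1 and 2.27, 2.81 and 2.17 CPM with the combination. The combination tumors were the 3 highest of the 12. The log2 change was 1.20 with the combination (SE 0.29, adjusted p = 0.015) and 0.76 with anti-PD-1 (SE 0.29, adjusted p = 0.12), and the difference between those groups was 0.44 (SE 0.28, adjusted p = 0.76). Tnfrsf12a, with the CK and PB-020 values above, had 140, 128 and 136 CPM with anti-PD-1 and 147, 142 and 146 CPM with the combination. The combination tumors were again the 3 highest, with PB-020 tumor 3 just below them, and the change was small and well resolved, at 0.29 (SE 0.06, adjusted p = 0.011), though not called without CK tumor 2 (0.27, adjusted p = 0.054). The average effect of anti-PD-1 was 0.15 (SE 0.05, adjusted p = 0.029), a call that held in only 4 of the 12 fits that left out a tumor and not without anti-PD-1 tumor 1 (0.14, adjusted p = 0.056).

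With all tumors, 0 of the 5 death domain receptors passed the test in any comparison. Tnfrsf1a had 85.3, 91.4 and 94.2 CPM in CK, 84.8, 81.7 and 89.0 CPM with PB-020, 115, 85.7 and 93.6 CPM with anti-PD-1 and 81.4, 95.5 and 107 CPM with the combination. The groups overlapped, and the log2 change with the combination was 0.07 (SE 0.11, adjusted p = 0.705). Fas, the receptor of Fas ligand, had 3.43, 2.51 and 6.38 CPM in CK and 6.04, 7.39 and 5.56 CPM with the combination, a change of 0.62 (SE 0.30, adjusted p = 0.156). CK tumor 3 was the highest CK tumor, as for Tnf, and without it Fas rose with the combination (1.10, SE 0.26, adjusted p = 0.0209) and on average over PB-020 (0.74, SE 0.17, adjusted p = 0.0108). The average change of Tnfrsf10b passed without PB-020 tumor 2 (0.24, adjusted p = 0.0296), and that of Tnfrsf21 (DR6) without anti-PD-1 tumor 2 (0.47, adjusted p = 0.0497). No other comparison of the 5 genes passed in any of the 12 fits that left out a tumor. These fits were picked because they passed, and leaving out the highest CK tumor by itself enlarges a rise. They therefore do not settle whether these genes changed. Tnfrsf10b, the mouse death receptor of TRAIL, had 22.2 ± 1.8 CPM in CK and 26.03 ± 0.97 CPM with the combination, a change of 0.23 (SE 0.11, adjusted p = 0.17). The 95% interval of that change ran from -0.01 to 0.47.

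Ltbr, the receptor of Ltb and Tnfsf14 on stromal and myeloid cells, had 65.7, 68.3 and 72.8 CPM in CK, 70.2, 64.1 and 74.6 CPM with PB-020, 74.1, 63.6 and 63.2 CPM with anti-PD-1 and 55.5, 63.3 and 70.7 CPM with the combination. All groups overlapped, and the log2 change with the combination was -0.13 (SE 0.10, adjusted p = 0.37). Tnfrsf11a (RANK), Tnfrsf13b (TACI) and Tnfrsf13c (BAFF receptor) changed by -0.27, 0.08 and -0.11 with the combination, with adjusted p values from 0.257 to 0.795.

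The promoters of the 15 genes that rose were searched for 3 motifs that immune signals use. RefSeq promoters of GRCm38.p6, the 250 bases before each start, were on hand for 32 of the 42 genes and 12 of the 15. The motifs were the NF-kB consensus, the gamma activated site (TTCNNNGAA) and the interferon-stimulated response element (GAAA, 2 bases of any kind, GAAA), on both strands. The NF-kB consensus occurred in 3 of the 32 genes and in 4.46% of all genes with a promoter, the gamma activated site in 8 of 32 and 8.13%, and the response element in 4 of 32 and 3.46%. Of the 12 genes, 4 held a match: 2 the NF-kB consensus, 3 the gamma activated site and 1 the response element. Genes outside the 15 held matches too. Fas, Lta, Tnfrsf1a, Tnfrsf1b and Tnfrsf25 held the gamma activated site, and Tnfrsf8 the NF-kB consensus. Tnfrsf17, Tnfrsf1b and Tnfsf13b held the response element. Whether a match goes with a rise was not tested. The 4 are shown 5′ to 3′ because they carry those letters, which are in capitals.

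For Ltb (chr17:35194257-35194506, plus strand), a gamma activated site begins at -172 and an NF-kB match at -87, counted from the transcript start. For the second listed start of Tnfrsf9 (chr4:150927749-150927998, plus strand), a gamma activated site begins at -136, and overlapping NF-kB matches begin at -43 and -42. The first start of Tnfrsf9 had no match. For Tnfrsf18 (chr4:156026072-156026321, plus strand) a gamma activated site begins at -99, and for Tnfrsf14 (chr4:154928078-154928327, minus strand) a response element begins at -64.
Ltb: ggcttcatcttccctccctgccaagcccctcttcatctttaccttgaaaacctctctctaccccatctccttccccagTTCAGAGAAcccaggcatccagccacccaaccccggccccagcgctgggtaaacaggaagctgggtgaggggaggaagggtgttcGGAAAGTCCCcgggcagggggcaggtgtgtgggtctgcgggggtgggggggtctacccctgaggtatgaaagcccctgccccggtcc
Tnfrsf9: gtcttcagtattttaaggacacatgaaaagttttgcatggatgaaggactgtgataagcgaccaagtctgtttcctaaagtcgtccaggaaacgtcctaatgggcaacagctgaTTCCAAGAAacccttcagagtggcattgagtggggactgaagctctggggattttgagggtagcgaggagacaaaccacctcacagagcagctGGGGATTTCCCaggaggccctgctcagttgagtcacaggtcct
Tnfrsf18: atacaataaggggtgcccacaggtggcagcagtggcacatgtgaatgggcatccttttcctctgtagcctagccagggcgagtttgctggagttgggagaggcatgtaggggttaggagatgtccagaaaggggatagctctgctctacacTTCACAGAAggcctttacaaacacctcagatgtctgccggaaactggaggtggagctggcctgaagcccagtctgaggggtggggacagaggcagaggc
Tnfrsf14: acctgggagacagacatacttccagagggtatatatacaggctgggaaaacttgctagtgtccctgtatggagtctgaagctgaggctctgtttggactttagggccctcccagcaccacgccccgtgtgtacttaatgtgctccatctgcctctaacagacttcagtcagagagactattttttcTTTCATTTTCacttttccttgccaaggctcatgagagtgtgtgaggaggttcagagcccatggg
Cd27, Tnfsf10 and Fasl, with the largest changes of the called genes beside Ltb and Tnfsf18, held none of these letters in the window searched. Binding to these sites was not measured here.

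The signaling genes behind the receptors moved less than the family. Of a list of 68 measured relatives, adaptors, caspases, kinases, NF-kB factors and target genes, 67 were tested. Anti-PD-1 raised 7 (10.4%, against 4.18% of all genes) and lowered 0. The combination raised 5 (7.46%) and lowered 3 (4.48%), neither above the 8.35% and 9.6% of all genes. The average effect of anti-PD-1 raised 16 (23.9%, against 11.8%) and lowered 2 (2.99%, against 12.3%). The medians were 0.15, 0.09 and 0.10 on the log2 scale. With the combination, the genes that rose were the antiapoptotic NF-kB targets Bcl2a1d (0.97, SE 0.18, adjusted p = 0.0047) and Bcl2a1b (0.75, SE 0.17, adjusted p = 0.014), closely related genes whose reads may be hard to part, the NF-kB inhibitor Tnip3 (0.70, SE 0.19, adjusted p = 0.024), the interferon-responsive factor Irf1 (0.69, SE 0.18, adjusted p = 0.027) and the TRAF-binding adaptor Traf1 (0.30, SE 0.08, adjusted p = 0.029).

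Those that fell were Eda2r, a receptor of ectodysplasin A2 (-0.85, SE 0.19, adjusted p = 0.011), Rell1, a relative of the receptor RELT (-0.35, SE 0.08, adjusted p = 0.014), and the adaptor Traf6 (-0.29, SE 0.08, adjusted p = 0.0325). Of the 18 target genes, 4 rose (22.2%, against 8.35% of all genes) and 0 fell (against 9.6%). None of the 10 kinases passed the test with the combination, with a median of -0.07.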

How the data were processed

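RNA from 12 tumors was sequenced by BGI on an Illumina HiSeq instrument as pairs of 150 bases. The authors aligned reads with Bowtie2 and quantified genes with RSEM against mm10 (GRCm38.p6 in the submitters' notes, which also name HISAT); versions and annotation are not given in the sources used here. The authors deposited expected counts, not normalized, and these were rounded to whole numbers. The deposited FPKM values (scaled to gene length and library size) served only as an alternative, and the deposited TPM values gave levels between genes. Group averages by the authors were not used. The labels name each of the 3 samples of a group an MC38 tumor with its own number. They do not say whether each came from a separate mouse.

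Genes were filtered with filterByExpr (minimum count 10), scaled by TMM and fitted with edgeR 4.0.16 in R 4.3.3 (robust quasi-likelihood, 4 group means over all 12 libraries, two-sided, Benjamini-Hochberg over 13563 genes). SE is the log2 change divided by the square root of F. Members were compared between tumors in CPM and marker genes in TPM, which ran higher in anti-PD-1 tumor 1 (a median of 0.712 TPM per CPM, against 0.604 to 0.685 elsewhere). Scripts were tested on simulated data. Per-tumor values were given for members with an adjusted p under 0.05 in any of the contrasts and for the 4 ligands and 6 receptors with the highest mean TPM, partners by group values, and of the signaling list up to 5 genes each way with the smallest p. Members, lists and tests were chosen with earlier results of these data known. Alternatives used DESeq2 1.42.0, limma 3.58.1 on log2(FPKM + 1) and log2(FPKM + 0.1), other scalings and filters, a replicate block, and leaving out each tumor. Coordinates are those of RefSeq on GRCm38.p6, to which 42 of 42 symbols matched. Shared windows came from GENCODE transcripts. The summing of rows that share sequence was chosen after seeing the data, and the fits singled out for Tnf and for the death domain receptors were chosen after their values were seen.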

Additional observations from a re-analysis of the deposited data

How the results depend on the processing

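Counts of genes that rose with anti-PD-1 (5) were 8 with DESeq2, 0 with only the groups compared, 9 by a fold over 1.5 with an unadjusted p under 0.05, and 0 to 9 when 1 tumor was left out. Over all genes, 567 rose with anti-PD-1 in the main fit. That number was 884 with DESeq2, 1 with only the groups compared, 611 by the fold rule, and 65 to 937 when 1 tumor was left out. With the combination against CK (10) they were 1 to 15 when 1 tumor was left out, and 8 to 14 under the other settings. Against PB-020 (2) they were 5 with DESeq2, 1 with library size scaling, 1 with no filter, 0 with limma at either pseudocount, 0 with the replicate block, 8 with only the groups compared, 10 by the fold rule, and 0 to 7 when 1 tumor was left out. The average effect of anti-PD-1 (15) gave 10 to 16 when 1 tumor was left out. The replicate block gave 6, 9 and 13 for anti-PD-1, the combination and the average effect. Over all genes it raised 450 with anti-PD-1 and 953 with the combination. For the other refits here, counts over all genes are not set beside those of the family. They do not show whether the family moved apart from all genes. The counts of 0 for PB-020 against CK, the combination against anti-PD-1, the interaction, the PB-020 average and genes lowered against CK stayed at 0 in these fits. In refits of single called genes, 514 kept the call, 138 lost it and 0 turned sign. The cause of the lost calls was not tested.

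Same-numbered tumors did not deviate together more than other pairs did. Their correlations were -0.21 to 0.29 over 18 pairs (median -0.04), against -0.22 to 0.36 over 36 other pairs. With so few tumors in each group, these values cannot show whether same-numbered tumors shared a batch or handling. Other scalings moved the median of all genes by under 0.03 on the log2 scale. Leaving out a tumor leaves 2 in its group, so a lost call does not show a smaller effect. Genes with few reads, such as Tnfsf18, Tnfsf15 and Lta, could change unseen at this depth. The labels do not say whether extraction or sequencing was batched.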

Other observations

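The median coefficient of variation of CPM over the 37 tested genes was 19.2% in CK, 11.4% with PB-020, 26.1% with anti-PD-1 and 13.4% with the combination, against 7.83%, 7.63%, 9.77% and 8.08% over all genes tested. For Tnfrsf12a, with the highest level, it was 1.75% to 5.98% over the groups. For Tnfsf15, the lowest tested gene with 1 to 17 reads per tumor, it was 21.7% to 91.9%. The part of low read numbers in the family's medians was not tested. The ratio of Tnfrsf23 to Tnfrsf22 in TPM lay between 0.951 and 1.06 in the tumors without anti-PD-1 and between 0.991 and 1.16 in those given it. Jchain, a plasma cell gene, was at 17.4 TPM in anti-PD-1 tumor 1 and 14.3 TPM in combination tumor 1, and at 0.10 to 2.98 TPM in the other 10 tumors, whereas Tnfrsf17 (BCMA), the plasma cell receptor of the family, had 0 or 1 read in each tumor.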
